A study of Mus musculus with 3 samples.

Results

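The accessibility of 10 genes of antigen presentation was followed: the major histocompatibility complex (MHC) class I heavy chains H2-K1 and H2-D1, the class I light chain B2m, the processing genes Tap1 and Psmb8, the class II chains H2-Aa, H2-Ab1 and H2-Eb1, the class II chaperone Cd74 and the class II regulator Ciita. They were chosen by name as genes of MHC class I and II presentation, and were 10 of 21887 protein-coding genes annotated in mouse build mm10 (RefSeq GRCm38.p6). All peaks that overlapped a gene body or 5 kb to either side were taken, which gave 46 merged regions of 147229 in the series. The assay was ATAC-seq of single nuclei: a transposase, Tn5, inserts adapters into open DNA, and sequenced fragment ends are counted per barcode, so the values measure accessibility and not RNA or protein. The 3 libraries of mouse glioma nuclei were named for PDGFB-WT overexpression, for PDGFB-NLS overexpression and as Control, 1 library each. All 3 came, per the series' design text, from tumors made by in utero electroporation with the piggyBac transposon, and all 3 carried the tissue label glioma. The meaning of NLS, the promoter, the other transgenes, the number of animals and the age were not given in the sources used here, nor was what the Control received. With 1 library per group no test between conditions was possible, and all intervals below are exact 95% intervals that cover counting error only.

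MHC class I molecules are carried by nearly all nucleated cells and show peptides made in the cytosol to CD8+ T cells. Psmb8 is a subunit of the immunoproteasome that cuts such peptides, Tap1 is part of the transporter that moves them into the endoplasmic reticulum, and B2m is needed for the complex to reach the surface. MHC class II molecules are carried mainly by professional antigen-presenting cells, are formed from an alpha chain (H2-Aa) and a beta chain (H2-Ab1, or H2-Eb1 in the other class II molecule), are guided by the invariant chain Cd74, and depend on the transactivator Ciita. In the brain, microglia and macrophages are the main resident cells able to use them, usually at low levels until activated.

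Promoters of 7 of the 10 genes were found in the RefSeq table of promoters. The 200 bases upstream of the start are shown for 5 of them, because these carry the sequence motifs by which class I and class II promoters are known. All 200 bases lay inside a called peak in each of the 3 libraries for each of these 5 genes. The sequences run 5' to 3' on the gene's strand in RefSeq GRCm38.p6, and capitals mark motif matches on either strand. They are the class II genes H2-Aa (chr17:34287824-34288023, minus strand) and H2-Eb1 (chr17:34305667-34305866, plus strand), and the class I genes H2-K1 (chr17:34000348-34000547, minus strand), H2-D1 (chr17:35262894-35263093, plus strand) and B2m (chr2:122147487-122147686, plus strand).
H2-Aa: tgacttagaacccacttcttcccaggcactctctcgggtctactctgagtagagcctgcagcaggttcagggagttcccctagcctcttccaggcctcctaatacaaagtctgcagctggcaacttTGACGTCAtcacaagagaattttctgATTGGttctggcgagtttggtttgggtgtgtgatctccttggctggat
H2-Eb1: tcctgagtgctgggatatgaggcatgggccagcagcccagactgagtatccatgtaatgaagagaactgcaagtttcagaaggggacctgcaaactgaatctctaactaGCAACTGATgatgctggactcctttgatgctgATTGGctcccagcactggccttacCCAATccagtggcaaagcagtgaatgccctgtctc
H2-K1: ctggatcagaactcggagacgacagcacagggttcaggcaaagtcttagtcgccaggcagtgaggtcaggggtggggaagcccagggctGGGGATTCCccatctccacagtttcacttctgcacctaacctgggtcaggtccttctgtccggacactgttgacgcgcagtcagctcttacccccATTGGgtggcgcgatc
H2-D1: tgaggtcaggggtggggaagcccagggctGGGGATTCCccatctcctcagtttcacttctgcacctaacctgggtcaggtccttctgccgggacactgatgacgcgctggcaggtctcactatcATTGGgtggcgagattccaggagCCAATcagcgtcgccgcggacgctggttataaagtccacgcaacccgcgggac
B2m: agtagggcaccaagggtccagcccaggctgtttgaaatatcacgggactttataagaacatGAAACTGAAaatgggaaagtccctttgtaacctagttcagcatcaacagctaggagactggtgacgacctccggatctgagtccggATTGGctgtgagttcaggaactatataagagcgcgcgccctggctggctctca

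The motifs were searched on both strands in 250 bases before to 50 after the start. CCAAT, the core of the Y box of class II promoters and a general promoter element, was present in 6 of the 7 promoters, all but Psmb8, and in 37.4% of the 32851 promoters of the table. GCAACNGAT, the core of the X box bound by the RFX complex, was present in H2-Eb1 and in 0.414% of all promoters. TGACGTCA, the cAMP response element, was present in H2-Aa and in 1.79% of all promoters. GGGGATTCC, part of the NF-kB site in enhancer A of class I genes, was present in H2-K1 and H2-D1 and in 0.250% of all promoters. TTCNNTTTC, an interferon-stimulated response element, was present in B2m and in 8.56% of all promoters, and TTCNNNGAA, the site of interferon-gamma-activated STAT factors, was present in Psmb8 and in 8.30%. GAGGAAG, the PU.1 core, was present in none of the 7 and in 13.6% of all promoters. These are matches of letters in this window, not measured binding.

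The libraries differed widely in depth. PDGFB-WT held 7441 barcodes with at least 200 counts and a median of 821 counts, PDGFB-NLS held 10996 with a median of 2767.5, and Control held 2226 with a median of 13054. The authors called peaks separately in each library, 57616 in PDGFB-WT, 127094 in PDGFB-NLS and 107627 in Control. Libraries are therefore compared as counts per 1000000 (CPM) of the counts in the 47450 regions called in all 3, and each ratio is given relative to the median log2 ratio of all compared genes, which was -0.16 when PDGFB-WT was set against Control, -0.02 when PDGFB-NLS was, and 0.13 between PDGFB-NLS and PDGFB-WT. Few barcodes recurred between libraries, at 23 between PDGFB-WT and Control, 45 between PDGFB-NLS and Control and 118 between PDGFB-NLS and PDGFB-WT. In these data depth and condition cannot be told apart.

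A peak was called at a gene end of all 10 genes in each library, except for Ciita in PDGFB-WT. Of all 21887 protein-coding genes, 12845 had a gene-end peak in all 3 libraries. The windows of the 10 genes held 24 peaks in PDGFB-WT, 41 in PDGFB-NLS and 44 in Control. Of the 46 merged regions, 23 (50%, interval 34.9 to 65.1%) were called in all 3 libraries, beside 34.7% of the 100153 regions in the windows of all protein-coding genes. A further 16 regions were called in PDGFB-NLS and Control but not in PDGFB-WT, 5 in Control alone, 1 in PDGFB-NLS alone and 1 in PDGFB-WT alone. Of the 100153 regions, 30086 were called in PDGFB-NLS and Control but not in PDGFB-WT. Another 9878 of them were called in Control alone, 20623 in PDGFB-NLS alone and 2513 in PDGFB-WT alone. Regions at gene ends, within 1000 bp of either end of a gene, were called in all 3 libraries in 11 of 15 cases, and the other regions in 12 of 31. The same split was not made over all genes. PDGFB-WT also had the fewest counts, 7008951 against 31177621 in PDGFB-NLS and 31588784 in Control, and the part of depth in the missing calls was not tested. Ciita had the most such gaps, with peaks in PDGFB-NLS or Control at 10 regions and in PDGFB-WT at 2 of them. Its gene body, chr16:10480014-10531064, was also the longest of the 10, and the part of window length in these gaps was not tested. Other genes lay in the windows too: Psmb9 in that of Tap1, Tap2 in that of Psmb8, Tcof1 in that of Cd74, Dexi in that of Ciita and Patl2 in that of B2m. A peak there cannot be assigned to either gene.

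The class I heavy chain genes were among the most open of the 10 at their ends and differed little between libraries. H2-D1 had 142 CPM in PDGFB-WT (130 to 155), 141 in PDGFB-NLS (134 to 148) and 140 in Control (134 to 147), at chr17:35262540-35263469. H2-K1 had 58.1 CPM in PDGFB-WT (50.4 to 66.7), 58.0 in PDGFB-NLS (53.9 to 62.3) and 68.3 in Control (63.9 to 72.9), at chr17:33999923-34000827. The H2-D1 intervals overlapped in all 3 libraries, while H2-K1 was highest in Control, with an interval above that of PDGFB-NLS and overlapping that of PDGFB-WT. These heavy chain genes resemble each other and other class I genes in sequence, and how reads that map to several places were treated was not given, so their counts may be shared.

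B2m, at chr2:122147211-122148128, had 53.2 CPM in PDGFB-WT (45.8 to 61.4), 66.2 in PDGFB-NLS (61.8 to 70.8) and 63.1 in Control (58.9 to 67.5). Tap1, at chr17:34187060-34187976, had 54.7 CPM in PDGFB-WT (47.3 to 62.9), 77.1 in PDGFB-NLS (72.4 to 82.1) and 67.6 in Control (63.2 to 72.1). Psmb8, at an end that Tap1 shares, had 25.04 CPM in PDGFB-WT (20.2 to 30.7), 35.8 in PDGFB-NLS (32.7 to 39.2) and 35.2 in Control (32.2 to 38.5). Each of these 3 was lowest in PDGFB-WT, and the PDGFB-WT and Control intervals did not overlap for Tap1 or Psmb8 on this CPM scale, which is not yet set against the median of all genes. In whole libraries, fewer cells of a type and less signal per cell cannot be told apart.

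The class II genes were less open. H2-Ab1, the beta chain of H2-A, had 17.3 CPM in PDGFB-WT (13.2 to 22.3), 32.3 in PDGFB-NLS (29.3 to 35.6) and 27.3 in Control (24.6 to 30.3), at chr17:34262760-34263673. H2-Aa, its alpha chain, had 13.6 CPM in PDGFB-WT (10.0 to 18.1), 21.2 in PDGFB-NLS (18.7 to 23.9) and 21.5 in Control (19.1 to 24.2). H2-Eb1 had 24.6 CPM in PDGFB-WT (19.7 to 30.4), 26.1 in PDGFB-NLS (23.3 to 29.0) and 28.7 in Control (25.9 to 31.8), over the 2 peaks at its start. H2-Ab1 was lowest in PDGFB-WT, with an interval apart from both others, and the H2-Eb1 intervals overlapped in all 3 libraries. The H2-Aa value of Control includes a peak called in Control alone, and at the peak common to all 3, chr17:34287313-34288430, Control had 18.7 CPM.

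Cd74 had 14.1 CPM in PDGFB-WT (10.4 to 18.6), 11.1 in PDGFB-NLS (9.31 to 13.1) and 18.5 in Control (16.3 to 21.01). The PDGFB-WT value includes a second peak at chr18:60804458-60805259 that was called in that library alone. At the peak common to all 3, chr18:60803224-60804151, Cd74 had 9.34 CPM in PDGFB-WT, 11.1 in PDGFB-NLS and 18.5 in Control, so Control was the highest there. Ciita, at chr16:10479511-10480475, had no peak called in PDGFB-WT, 1.22 CPM in PDGFB-NLS (0.698 to 1.98, from 30 counts) and 2.52 CPM in Control (1.75 to 3.52, from 65 counts). It was the least open of the 10 genes where it was called.

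**Figure D1:**
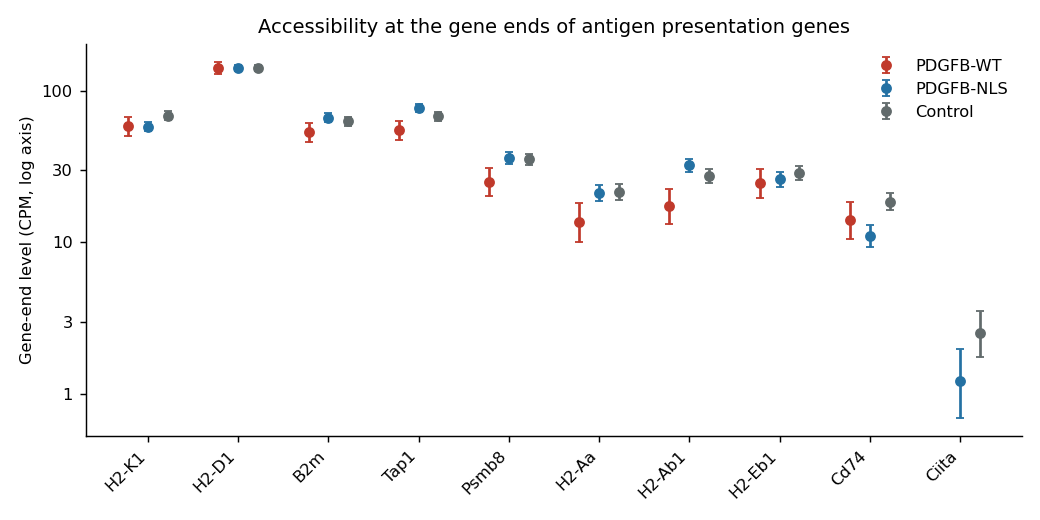
Accessibility at the gene end of each of the 10 genes, in CPM on a log axis, for PDGFB-WT, PDGFB-NLS and Control (1 library each). Bars are exact 95% intervals for counting error only, and H2-D1 is the highest in each library with about the same value in all 3, while Ciita is the lowest and has no point in PDGFB-WT.

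Per kb of peak, H2-D1 was the highest in each library, at 156 CPM per kb in PDGFB-WT, 153 in PDGFB-NLS and 154 in Control. H2-K1 (64.9 in PDGFB-WT, 67.6 in PDGFB-NLS and 77.3 in Control), Tap1 (63.4, 86.6 and 76.2 in the same order of libraries) and B2m (58.5, 74.7 and 70.0) came next, with an order that changed between libraries. Psmb8 and the class II genes stood lower in CPM per kb, with H2-Ab1 at 19.4 in PDGFB-WT, 36.7 in PDGFB-NLS and 31.1 in Control as the highest class II gene in each library.

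Against Control, PDGFB-WT showed none of the compared genes past 1.5-fold at its end. The 100 counts needed in both libraries were reached by 7 genes. Of these 7, 0 were higher, beside 5.87% of the 10722 genes compared, and 0 were lower, beside 2.42%. Their median log2 ratio was -0.09 relative to the all-gene median, and the middle 50% of all genes lay between -0.17 and 0.18. H2-Ab1 had the lowest log2 ratio, -0.50 (-0.94 to -0.12), and Psmb8 followed at -0.33 (-0.65 to 0.01). Over the whole Psmb8 window the ratio was -1.24, where 2 flanking peaks were called in PDGFB-NLS and Control but not in PDGFB-WT. The larger of them, chr17:34204052-34205052, lies at an end of Tap2, with 604 counts in PDGFB-NLS and 647 in Control. As an uncalled peak it adds 0 counts in PDGFB-WT, so this whole-window ratio cannot be assigned to Psmb8 or Tap2. H2-D1 had the highest, 0.17 (0.02 to 0.31), and this value depends on how counts are read, because it was 0.65 when each peak and barcode was counted at most once. At that end, PDGFB-WT had 489 fragments in 454 barcodes, and Control had 1841 fragments in 927 barcodes. Counting each barcode once therefore takes far more from Control than from PDGFB-WT at that end, and the part of this in the ratio was not tested. Tap1 at -0.15, B2m at -0.09, H2-K1 at -0.07 and H2-Eb1 at -0.07 had intervals that held 0. H2-Aa, Cd74 and Ciita had too few counts in PDGFB-WT to be compared.

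PDGFB-NLS differed from Control most at Cd74. Of 9 genes compared, 0 were higher, beside 4.80% of the 12495 genes compared, and 1 was lower, beside 1.24%. That gene was Cd74, with a log2 ratio of -0.73 (-1.06 to -0.44). It no longer passed 1.5-fold when the whole window was counted (-0.37) or with 2000 bp to either side of the end (-0.35). H2-K1 had a log2 ratio of -0.22 (-0.36 to -0.07), whereas H2-Ab1 had 0.26 (0.03 to 0.45), or -0.01 over its whole window, and Tap1 had 0.21 (0.09 to 0.35). The median of the 9 was 0.02, and the middle 50% of all genes lay between -0.10 and 0.12.

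PDGFB-NLS against PDGFB-WT put 1 gene past 1.5-fold. Of 7 genes compared, 1 was higher, beside 1.92% of the 10738 genes compared, and 0 were lower, beside 3.07%. That gene was H2-Ab1, with a log2 ratio of 0.77 (0.38 to 1.18). Psmb8 at 0.39 (0.05 to 0.71) and Tap1 at 0.37 (0.14 to 0.59) were also higher than the all-gene median by more than counting error. The median of the 7 was 0.19, and the middle 50% of all genes lay between -0.16 and 0.16. These comparisons share libraries, since PDGFB-WT and Control each serve in 2 of the 3, so they are not independent.

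**Figure D2:**
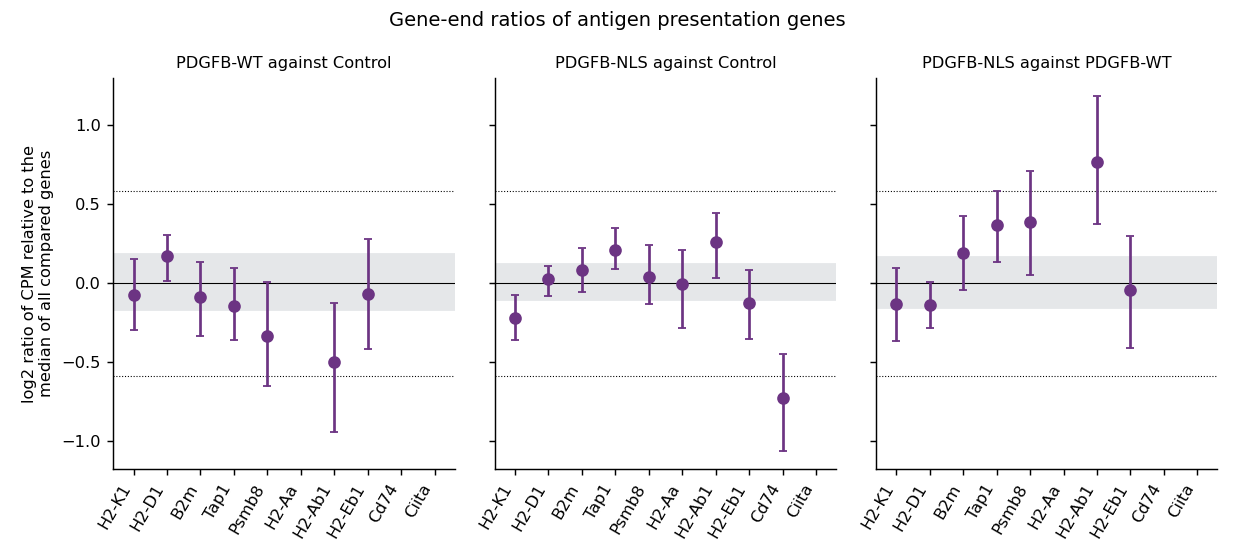
Log2 ratio of CPM at the gene end of each compared gene, for PDGFB-WT against Control (left), PDGFB-NLS against Control (middle) and, at right, PDGFB-NLS against PDGFB-WT, relative to the median of all compared genes. Bars are exact 95% intervals for counting error only, the grey band is the middle 50% of all compared genes and dotted lines mark 1.5-fold; Cd74 is the lowest in PDGFB-NLS against Control at -0.73 and H2-Ab1 the highest in PDGFB-NLS against PDGFB-WT at 0.77.

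A list of 54 other antigen presentation genes was set beside the 10. Of 34 compared between PDGFB-WT and Control, H2-Q7 was the one higher past 1.5-fold (1.12, interval 0.67 to 1.60) and H2-Q4 the one lower (-0.63). The median of the 34 was -0.05, and of all compared genes 5.87% were higher and 2.42% lower. H2-Q genes are near-identical class I paralogs, so their split of reads is uncertain. Tapbpl, a homolog of the peptide-editing protein tapasin, had 0.36, and H2-T24 had -0.55. Of 43 compared between PDGFB-NLS and Control, 0 were higher and 0 lower past 1.5-fold, beside 4.80% and 1.24% of all compared genes, with a median of -0.05. The ubiquitin ligase Marchf1, which lowers surface class II, had 0.45 and the costimulatory receptor Cd40 had 0.34, while Fcgrt, the neonatal Fc receptor heavy chain, had -0.57 and H2-M3, which presents formylated peptides, had -0.54. Of 34 compared between PDGFB-NLS and PDGFB-WT, H2-Q4 was higher (0.63) and H2-Q7 lower (-0.92), beside 1.92% and 3.07% of all compared genes, with a median of -0.02. Ctsl, a protease that cuts Cd74, had 0.47 there and Rfxank, a subunit of the RFX complex, had -0.33. Psmb9, the immunoproteasome gene beside Tap1, shares the Tap1 end peak and so has the same value.

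Clusters were made within each library from peaks outside the windows of the 10 genes, and named from marker loci. Barcodes called microglia-like here took the marker list for microglia or macrophages, and these cell types were not told apart. Microglia-like barcodes, 1 cluster in each library, numbered 2351 in PDGFB-WT (31.6% of barcodes), 2870 in PDGFB-NLS (26.1%) and 492 in Control (22.1%). Median counts per barcode in that cluster were 843 in PDGFB-WT, 3432.5 in PDGFB-NLS and 23319 in Control. Some clusters had no marker of their list among their 10 leading genes and are given by number.

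Summed over the class II genes other than Ciita, accessibility was concentrated in microglia-like barcodes, and Cd74 was the gene with the highest share. Microglia-like barcodes held 54.2% of the class II fragments in PDGFB-WT (289 of 533; 49.9 to 58.5%), 53.3% in PDGFB-NLS (1495 of 2807; 51.4 to 55.1%) and 63.7% in Control (2041 of 3206; 62.0 to 65.3%). With barcodes picked by counts at marker loci in place of clusters, 440 barcodes of PDGFB-WT held 14.3% of class II fragments and 8.19% of all counts, 1752 of PDGFB-NLS held 31.8% and 19.7%, and 351 of Control held 43.3% and 24.9%. The barcodes of the microglia-like clusters held 31.0% of all counts in PDGFB-WT, 32.1% in PDGFB-NLS and 35.6% in Control. The 5 class I genes summed to 53.8% in PDGFB-WT (51.2 to 56.4%), 49.2% in PDGFB-NLS (48.0 to 50.4%) and 53.8% in Control (52.6 to 54.9%). The class I interval lay below that of class II in PDGFB-NLS and Control, and overlapped it in PDGFB-WT. The class II sum includes Cd74. H2-Aa, H2-Ab1 and H2-Eb1 each had a share below the class I sum in PDGFB-WT and PDGFB-NLS. The intervals of H2-Ab1 in both libraries and of H2-Eb1 in PDGFB-WT overlapped that of the class I sum. In Control, H2-Ab1 was above the class I sum (57.3 to 63.3%). The Control intervals of H2-Aa (47.7 to 56.4%) and H2-Eb1 (50.5 to 57.6%) overlapped that of the class I sum. The order of the classes in PDGFB-NLS therefore does not hold for these chains.

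Cd74 was the most concentrated, with 82.0% of its fragments in microglia-like barcodes in PDGFB-WT, 86.4% in PDGFB-NLS and 84.0% in Control. The antigen-presenting chains were less so. H2-Aa had 38.5% in PDGFB-WT (29.1 to 48.5%), 35.6% in PDGFB-NLS (31.4 to 39.9%) and 52.1% in Control (47.7 to 56.4%), and the intervals of PDGFB-WT and PDGFB-NLS held the share of all counts. H2-Ab1 had 47.2% in PDGFB-WT, 48.1% in PDGFB-NLS and 60.3% in Control. H2-Eb1 had 43.1% in PDGFB-WT, 43.0% in PDGFB-NLS and 54.0% in Control. All 3 chains had their highest share in Control. Shares here and for the class sums were taken over the peaks called in each library, and these sets differ. Peaks called in Control alone entered its H2-Aa and H2-Eb1 shares. At the common H2-Aa peaks, microglia-like barcodes held 80 of 204 counts in PDGFB-WT, 354 of 1004 in PDGFB-NLS and 462 of 960 in Control. The class I heavy chain H2-K1 had 58.8% in PDGFB-WT, 54.9% in PDGFB-NLS and 56.9% in Control, close to H2-D1 at 58.1% in PDGFB-WT, 53.1% in PDGFB-NLS and 57.7% in Control.

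Single peaks differed from one another within a gene. Both peaks inside Cd74, at chr18:60805447-60806351 and chr18:60806962-60807939, had between 80.0% and 95.01% of their counts in microglia-like barcodes in the 3 libraries. The peak flanking H2-Ab1 at chr17:34257356-34258276 had 65.7% in PDGFB-WT, 77.3% in PDGFB-NLS and 85.1% in Control. The H2-Ab1 end peak had 41.9% in PDGFB-WT, 33.6% in PDGFB-NLS and 42.4% in Control. The other flanking peak of H2-Ab1, at chr17:34261202-34262139, had 41.3% in PDGFB-WT, 45.4% in PDGFB-NLS and 65.6% in Control. The farther flanking peak had the highest share of the 3 in each library, and the nearer one was close to the end peak in PDGFB-WT and above it in PDGFB-NLS and Control.

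At class I genes, some flanking peaks had a higher share than the end peak and others a lower one. The H2-D1 peak at chr17:35258963-35259752 had 85.6% of its counts in microglia-like barcodes in PDGFB-WT, 82.5% in PDGFB-NLS and 77.3% in Control, whereas the H2-D1 end peak had 58.3% in PDGFB-WT, 52.8% in PDGFB-NLS and 58.3% in Control. The other H2-D1 flanking peaks were below the end, at 38.7% in PDGFB-WT, 40.1% in PDGFB-NLS and 40.1% in Control for chr17:35257800-35258681, and at 32.3% in PDGFB-NLS and 42.3% in Control for chr17:35269550-35270468. The H2-K1 flanking peak called in all 3 libraries, at chr17:33991536-33992615, was also below its end, with 40.2% in PDGFB-WT, 46.3% in PDGFB-NLS and 48.0% in Control, against 64.0% in PDGFB-WT, 56.25% in PDGFB-NLS and 58.0% in Control at the H2-K1 end. Another H2-K1 flanking peak, at chr17:34005188-34006102, was above its end, with 80.4% in PDGFB-NLS (46 counts) and 95.3% in Control (43 counts). The H2-K1 flanking peak called in PDGFB-NLS alone had 53.2%. The B2m peak in the flank, at chr2:122155693-122156681, had 71.4% in PDGFB-WT, 86.5% in PDGFB-NLS and 88.9% in Control, against 47.1% in PDGFB-WT, 42.2% in PDGFB-NLS and 49.4% in Control at the B2m end. The Tap1 end had 37.4% in PDGFB-WT, 39.4% in PDGFB-NLS and 43.5% in Control. Its CPM in microglia-like against other barcodes was 1.29-fold in PDGFB-WT, with an interval that held 1, and 1.35-fold in PDGFB-NLS and 1.42-fold in Control, with intervals above 1.

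Ciita held peaks of opposite kinds. Its end peak had 83.3% of counts in microglia-like barcodes in PDGFB-NLS (25 of 30) and 86.2% in Control (56 of 65). The peak at chr16:10510524-10511487, inside the gene, had none of 53 counts there in PDGFB-NLS and none of 60 in Control, which allows shares of up to 10.3% in PDGFB-NLS and 10.0% in Control, taking 3 fragments as the limit that 0 allows. The peak at chr16:10526616-10527713, at the far end next to Dexi, had 9.59% in PDGFB-NLS and 11.1% in Control. Summed over the window these gave 39.0% of Ciita fragments in PDGFB-WT, 43.4% in PDGFB-NLS and 49.5% in Control, so the sum hides the difference between peaks. At H2-Aa, a Control-only peak at chr17:34286267-34286949 had 73 of its 74 counts (98.6%) in microglia-like barcodes.

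**Figure D3:**
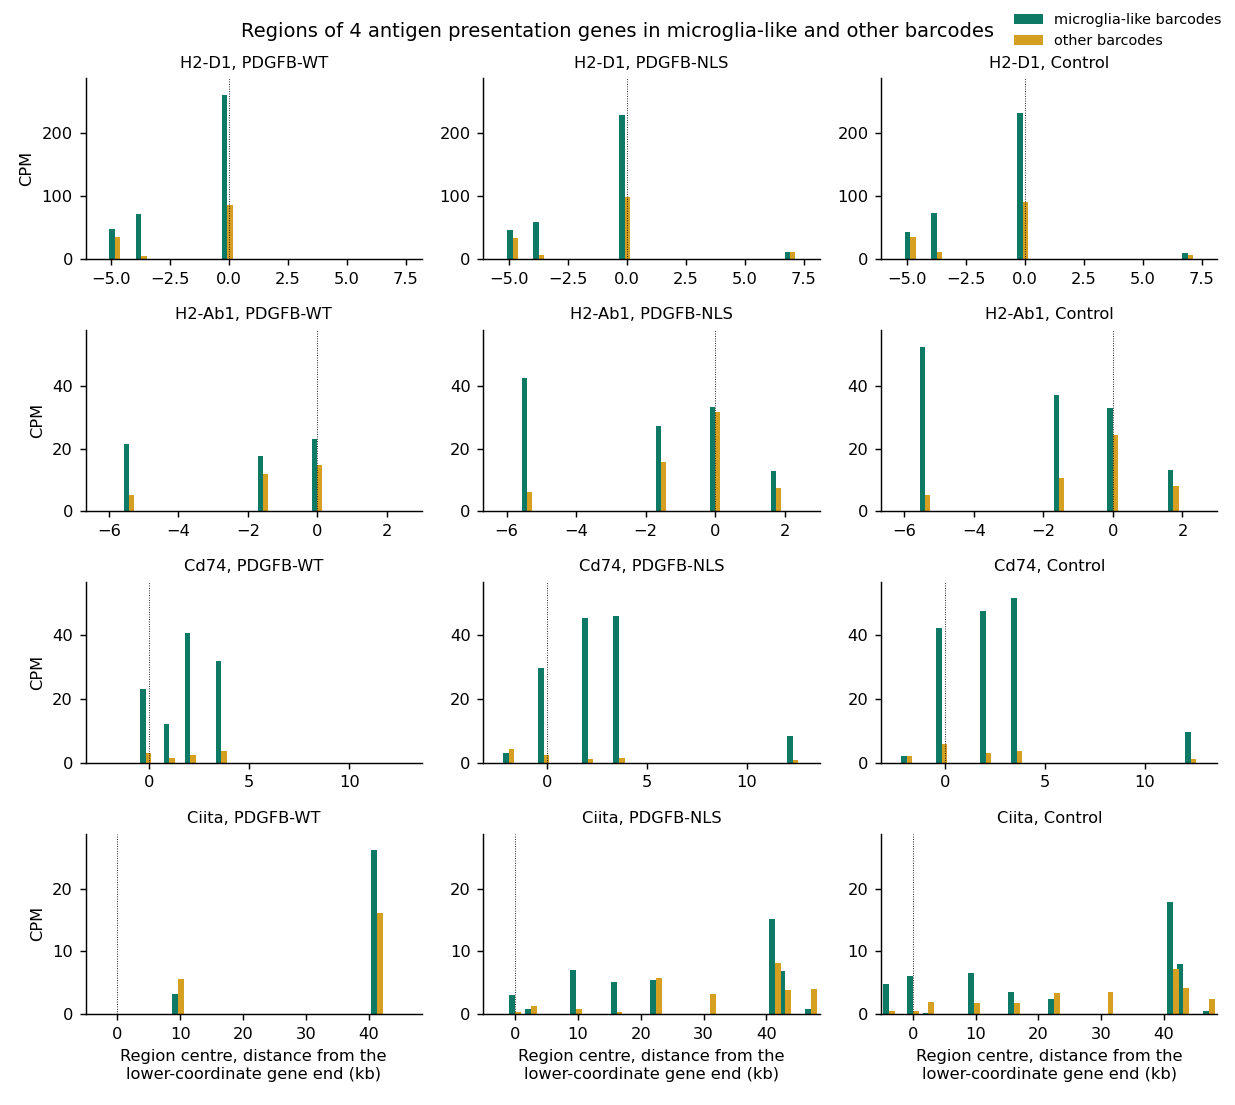
CPM of each called region of H2-D1, H2-Ab1, Cd74 and Ciita (rows) in microglia-like barcodes (green) and other barcodes (yellow) of PDGFB-WT, PDGFB-NLS and Control (columns), against the distance in kb of the region's centre from the gene end with the lower coordinate (dotted line). The bars show that the Cd74 end, the regions inside Cd74 and the farthest H2-Ab1 region are high in microglia-like barcodes and low in the others, while at the H2-Ab1 end both sets of barcodes have signal.

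Across clusters, class II accessibility was highest in microglia-like barcodes, with 1 exception in Control. The 4 class II genes summed to 247 CPM in PDGFB-WT (219 to 278), 320 in PDGFB-NLS (303 to 338) and 370 in Control (353 to 388). Control cluster 9, of 47 barcodes led by genes that include Ifi207, Cd69, Cxcl2, Cd36 and Ms4a6c, had 528 CPM (444 to 624). It is given by number, as none of the markers of its closest list stood among its 10 leading genes. Oligodendrocyte precursor cell (OPC)-like barcodes had 114 CPM in PDGFB-WT and 147 in PDGFB-NLS, oligodendrocyte-like barcodes 124 in PDGFB-NLS and 95.4 in Control, and astrocyte-like barcodes 143 in PDGFB-NLS and 103 in Control. The class II level in PDGFB-WT microglia-like barcodes was below the Control value by more than counting error.

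Class I accessibility was highest in Control cluster 9, at 843 CPM (736 to 961), and high in microglia-like and endothelial-like barcodes. The 5 class I genes summed to 711 CPM in microglia-like barcodes of PDGFB-WT (662 to 763), 710 in PDGFB-NLS (685 to 736) and 739 in Control (715 to 764). Endothelial-like barcodes had 558 CPM in PDGFB-NLS, and 597 and 581 in the 2 such clusters of Control. Class II in the same endothelial-like barcodes was low, at 115 CPM in PDGFB-NLS and 71.9 and 85.0 in the Control clusters. Mural or fibroblast-like barcodes of Control had 453 CPM of class I and 99.6 of class II. Oligodendrocyte-like barcodes had 278 CPM of class I in PDGFB-NLS and 229 in Control.

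The share of nuclei with any class II fragment depends on depth. At 500 fragments per barcode, the expected share of microglia-like barcodes with a class II fragment was 11.3% in PDGFB-WT, 14.9% in PDGFB-NLS and 16.9% in Control. Unthinned it was 10.5% in PDGFB-WT, 35.7% in PDGFB-NLS and 95.5% in Control. Barcodes under 500 fragments were left out, 1432 of 2351 in PDGFB-WT, 63 of 2870 in PDGFB-NLS and 1 of 492 in Control. Oligodendrocyte-like barcodes, a cell type that normally lacks class II, gave 5.62% in PDGFB-NLS (median 2976 counts; 13.1% unthinned) and 4.65% in Control (median 23550; 56.0% unthinned) when thinned alike. PDGFB-WT had no such cluster, and its OPC-like barcodes gave 5.88% (median 1007.5). The microglia-like shares lay above these in each library. Whether the lower shares are background was not tested, since class II peaks also had signal outside microglia-like barcodes. The H2-Ab1 end had 14.8 CPM in other barcodes of PDGFB-WT, 31.8 in PDGFB-NLS and 24.3 in Control. In microglia-like barcodes it had 22.9 CPM in PDGFB-WT, 33.4 in PDGFB-NLS and 33.0 in Control. Class I at the same depth gave 29.3% of microglia-like barcodes in PDGFB-WT, 29.9% in PDGFB-NLS and 31.0% in Control.

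**Figure D4:**
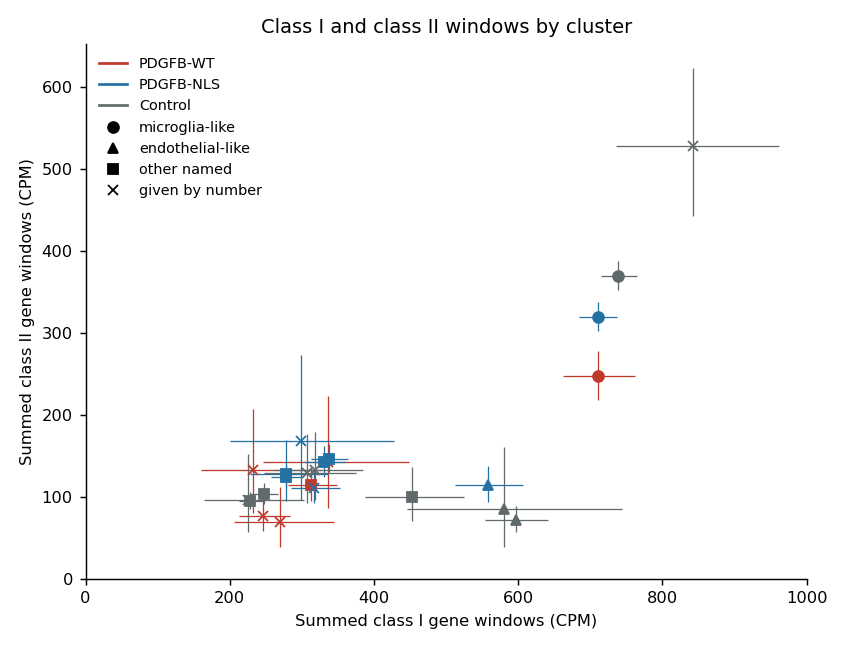
Summed class I CPM (horizontal axis) and class II CPM (vertical axis) in each cluster of PDGFB-WT, PDGFB-NLS and Control, with exact 95% intervals for counting error only. Microglia-like clusters stand high in both classes, endothelial-like clusters in class I alone, and Control cluster 9 is highest in class II at 528 CPM.

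Over all 24 clusters of the 3 libraries, the genes whose window accessibility followed the class II sum most closely among 5136 candidates were Ptk2b (Pearson's r 0.87), Stk10 (0.83), Ssh2 (0.83), Csk (0.81) and Pik3ap1 (0.81). For the class I sum they were B4galt5 (0.90), Vrk1 (0.88), Cmtm6 (0.88), Heatr1 (0.86) and Mtmr12 (0.86). Clusters of 1 library share its depth and peak set, so these coefficients describe likeness only.

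Within microglia-like barcodes, several genes were less open in PDGFB-WT than in Control. All 10 were compared over the common peaks of their windows. Of these, 0 were higher past 1.5-fold, beside 3.63% of the 11842 windows compared, and 3 were lower, beside 3.98%. H2-Ab1 had 62.1 CPM in PDGFB-WT and 123 in Control, a log2 ratio of -1.01 (-1.43 to -0.68). Psmb8 had 38.8 CPM in PDGFB-WT and 59.9 in Control (-0.66, interval -1.09 to -0.15), and Cd74 had 95.3 in PDGFB-WT and 141 in Control (-0.59, interval -0.85 to -0.25). Psmb8 fell short of 1.5-fold among barcodes with at least 1000 counts (-0.44), and Cd74 did so there (-0.52) and when barcodes were picked by marker loci (-0.31).

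The remaining genes lay between. Tap1 had 103 CPM in PDGFB-WT and 143 in Control (-0.50, interval -0.77 to -0.19). H2-Aa at -0.48, B2m at -0.32 and H2-Eb1 at -0.11 were lower in value with intervals that held 0. H2-K1 at -0.03, H2-D1 at 0.10 and Ciita at 0.24 had intervals that held 0 too, but H2-K1 had -0.67 with barcodes picked by marker loci, and Ciita had 0.80 (0.16 to 1.42) among barcodes with at least 1000 counts. Over the alternatives, H2-Aa ranged between -0.93 and -0.48, H2-D1 between -0.25 and 0.53, and Ciita between -0.00 and 0.96. The median of the 10 was -0.40, and 8 of 10 lay below the all-gene median.

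PDGFB-NLS and Control were closer within microglia-like barcodes. Of 10 genes, 0 were higher, beside 2.30% of 13765 windows, and 0 were lower, beside 0.770%. The log2 ratios ran from -0.26 at H2-Ab1 (103 CPM in PDGFB-NLS and 123 in Control) to 0.07 at Tap1, with a median of -0.13. Cd74, which was past 1.5-fold lower at its end in the whole library, had -0.24 here (-0.42 to -0.08), over the peaks of its window.

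PDGFB-NLS stood above PDGFB-WT by more than 1.5-fold within microglia-like barcodes at 2 of 10 genes, beside 3.53% of 11863 windows, and below it at 0, beside 2.77%. H2-Ab1 had a log2 ratio of 0.76 (0.41 to 1.18) and Psmb8 had 0.62 (0.15 to 1.09). Among barcodes with at least 1000 counts, Psmb8 had 0.41 (-0.17 to 0.93) and no longer passed, while Ciita had -0.94 (-1.55 to -0.26) and passed as lower. Tap1 was just short of 1.5-fold at 0.58 (0.29 to 0.87), and Cd74 had 0.36 (0.01 to 0.62). The median of the 10 was 0.24.

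The level of microglia or macrophage markers moved in the same order as class II. The summed marker loci had 1445 CPM in microglia-like barcodes of PDGFB-WT, 1636 in PDGFB-NLS and 1801 in Control, with 14 of 16 markers having a common peak and none of the 14 at 0. Outside those barcodes the sum was 304 CPM in PDGFB-WT, 237 in PDGFB-NLS and 250 in Control. A list for monocyte-derived cells, with 1 of 6 markers having a common peak, moved in the opposite order in microglia-like barcodes. It had 26.6 CPM in PDGFB-WT (18.1 to 37.8), 13.3 in PDGFB-NLS (10.1 to 17.2) and 10.8 in Control (8.18 to 14.0). Outside them it had 19.1 CPM in PDGFB-WT, 21.8 in PDGFB-NLS and 24.1 in Control. The part of these differences, and of the depth per barcode, in the class II values was not tested.

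**Figure D5:**
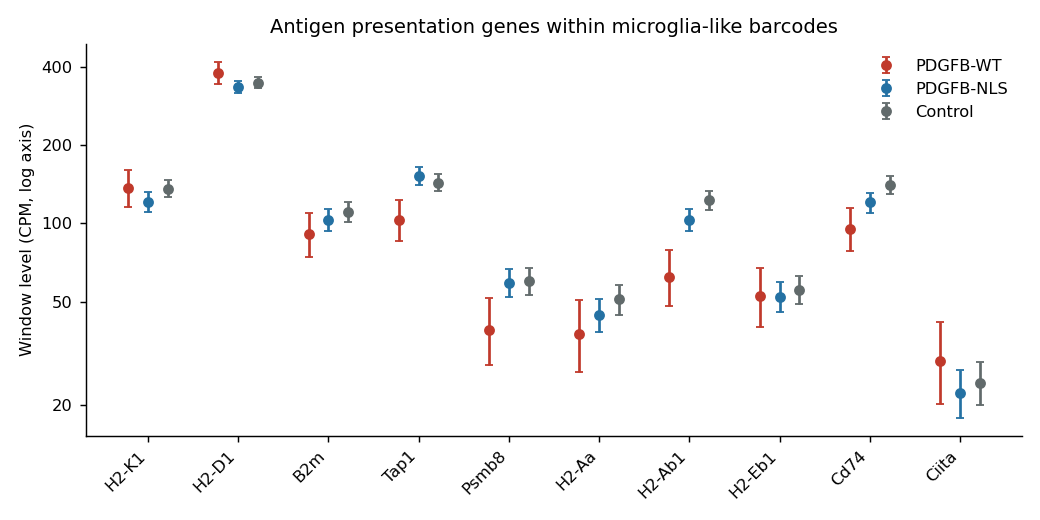
CPM, on a log axis, in the common peaks of each of the 10 genes within microglia-like barcodes of PDGFB-WT, PDGFB-NLS and Control, with exact 95% intervals for counting error only. H2-Ab1 has 62.1 CPM in PDGFB-WT, below the 103 in PDGFB-NLS and 123 in Control, while H2-D1 is the highest in each library.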

How the data were processed

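Single-cell ATAC-seq was made from nuclei of dissociated mouse gliomas with version 2 of the 10x Genomics kit for single-cell ATAC, per the labels' protocols. The authors deposited, for each library, a matrix of counts per peak and barcode, with peaks called per library. The file headers name cellranger-atac 2.1.0 and mm10, while Cell Ranger 8 and mm10 stand in the submitters' processing notes. Deposited counts were mostly even, at 91.4% of entries in PDGFB-WT, 91.3% in PDGFB-NLS and 91.8% in Control, as when both ends of a fragment are counted, so intervals were taken on fragments, (value + 1) // 2.

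Barcodes with at least 200 counts were kept (7441 of 7511 in PDGFB-WT, 10996 of 10996 in PDGFB-NLS and 2226 of 2267 in Control). Whole-library totals were 7008951 counts in PDGFB-WT, 31177621 in PDGFB-NLS and 31588784 in Control. Peaks were merged over libraries into regions, and CPM were taken over counts in regions called in all 3, which held 96.3% of the counts in PDGFB-WT, 78.8% in PDGFB-NLS and 81.6% in Control. The RefSeq gene table used here gives no strand, so a gene's end with more counts over the 3 libraries was used, within 1000 bp. Ratios needed 100 counts in each library (50 within microglia-like barcodes), and a 1.5-fold ratio relative to the median of all compared genes was counted. Groups were taken from the sample titles. Intervals are exact Poisson for levels, Clopper-Pearson for shares and Clopper-Pearson on the conditional binomial for ratios. The ratio code was tested on simulated data.

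Within each library, peaks outside the windows of the 10 genes and present in at least 1% of barcodes were reduced to 30 components, of which those from number 2 on were clustered (15 neighbours, Leiden resolution 0.6). Clusters were named from 12 marker lists over gene body plus 2 kb, by the highest median log2 fold of at least 0.5. After the names were seen, a check was added that left a cluster by number where no marker of its list, or more markers of another, stood among its 10 leading genes. Doublets were not called with a doublet caller, and leaving out the 5% of barcodes with most counts served as the alternative. Thinned shares are the expected share of barcodes with a fragment at 500 fragments.

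Genes named in the text were all 10 members, the 2 highest and 2 lowest of 54 other antigen presentation genes per comparison, genes sharing a member's end peak and the 5 genes closest to the class I and class II sums across clusters. The members and lists were chosen with earlier results of these data known. The 5 promoters shown, the thinning depth, the minimum of 50 counts and the choice of single peaks described were set after values were seen. Software was Python 3.11.15 with numpy 2.4.6, scipy 1.17.1, pandas 2.3.3, scikit-learn 1.9.0, leidenalg 0.10.2 and matplotlib 3.10.9.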

Additional observations from a re-analysis of the deposited data

How the results depend on the processing

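The median log2 ratio of the compared genes was recomputed under each alternative. It ranged between -0.27 and -0.08 for PDGFB-WT against Control, -0.06 and 0.04 for PDGFB-NLS against Control, on both sides of 0, and 0.05 and 0.32 for PDGFB-NLS against PDGFB-WT. Within microglia-like barcodes it ranged between -0.44 and -0.36, -0.18 and -0.13, and 0.25 and 0.35 in the same order of comparisons. The count of genes past 1.5-fold rests on few genes and changed more. For PDGFB-WT against Control, 0 as reported, it was 1 without taking off the all-gene median and with a 2000 bp window, and 2 with each peak and barcode capped at 1 and over the gene body plus 5 kb. For PDGFB-NLS against Control, 1 as reported, it was 0 with a minimum of 300 counts, a 2000 bp window or the gene body plus 5 kb. For PDGFB-NLS against PDGFB-WT, 1 as reported, it was 0 with a minimum of 300 counts or among barcodes with at least 1000 counts, where H2-Ab1 had too few counts to be compared. Over the gene body plus 5 kb it was 2, where Psmb8 joined with 1.24. That Psmb8 window also holds a peak at an end of Tap2 that was not called in PDGFB-WT. Within microglia-like barcodes, single-gene ratios moved in 10 of 150 cases. At gene ends they moved in 14 of 288 cases, among them H2-D1 in PDGFB-NLS against Control, at 0.45 with capped counts. At the H2-D1 end, PDGFB-NLS had 1770 fragments in 1532 barcodes, and Control had 1841 in 927, so capping takes more from Control at that peak. The cause of these changes was not tested. The share of class II counts in microglia-like barcodes was 62.0% in Control with capped counts. With barcodes picked by marker loci in place of clusters, it was 14.3% in PDGFB-WT, 31.8% in PDGFB-NLS and 43.3% in Control. The share of regions called in all 3 libraries ranged between 48.9% and 53.1%. In Control at resolution 1.0, no cluster took the microglia name under the added check, so the alternative was run with the names as first ruled, chosen after seeing the data.

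No paired analysis was possible because each group had 1 library and the shared replicate number names no second sample. For the same reason no library was left out in turn. Counting error limits PDGFB-WT most, where H2-Aa and Cd74 had fewer than 100 counts at their ends and Ciita had no peak there.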
